A study of Drosophila melanogaster with 4 samples.

Results

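The regions described here are the clusters of histone H3 lysine 27 acetylation (H3K27ac) that lie beside the centromeres of the large autosomes of Drosophila melanogaster. They were chosen by position alone, as the enriched regions of the authors' combined list whose midpoint falls within 2 Mb of the centromere end of the assembled arms 2L, 2R, 3L and 3R. This rule took 387 of the 7474 enriched regions, with 88 on 2L (from 21011545 to 23011544), 90 on 2R (from 1 to 2000000), 67 on 3L (from 22543558 to 24543557) and 142 on 3R (from 1 to 2000000). Positions are on FlyBase release 5. Population cages of the wild-type strain Oregon-R supplied embryos of 14 to 16 h, so each library pools many whole embryos and all of their cell types. That age is the labelled stage, and the protocol text gives only the upper age of 16 h. Chromatin immunoprecipitation and sequencing (ChIP-seq) was done in 2 replicates with an antibody to H3K27ac, and 2 input libraries served as references, each for a single replicate. Per the labels' protocols, all of the embryos were crosslinked with 1.8% formaldehyde. Besides the combined list, the authors deposited a list of clusters for each replicate, and the centromere ends held 350 of the 6223 clusters of replicate 1 and 325 of the 6317 of replicate 2.

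H3K27ac marks the nucleosomes of active promoters and enhancers, is written in flies by the acetyltransferase CBP (nejire), and occupies the same residue that Polycomb complexes methylate to silence genes. The sequence around fly centromeres is packed into heterochromatin, which is rich in satellites and transposons, carries methylated H3 lysine 9 and is bound by HP1a. Genes are sparse there but not missing, and some of them, such as light on 2L, need the heterochromatic setting to be expressed. The assembled arms run from gene-rich euchromatin into the edge of this heterochromatin, and most of the satellite sequence beyond it is not part of the arms.

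Each cluster carries a value given by the authors, whose scale is not stated and which was used only within its own list. No reads are counted in the lists and the depth behind a cluster is unknown. The input libraries themselves were not analysed here. Nothing says that the embryos of each replicate were collected separately, and the spread between replicates may be technical. With 2 libraries, no exact paired test can give a two-sided p below 0.5. Differences were therefore read against the spread between the replicates: they are said to exceed it where the replicates shared a direction and the mean was larger than its SD, which for normally distributed values happens in 39.2% of contrasts without a difference. No gene is named at a cluster, because no gene annotation of release 5 was used here.

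On 2L, 2R and 3L the centromere end carried less acetylated sequence than the middle of the same arm, and on 3R it carried more. The middle is the arm without 2 Mb at either end. On 3L the covered share of the centromere end lay below that of the middle by 11.6 percentage points in replicate 1 and by 15.6 in replicate 2, a difference of -13.6 ± 2.88 points (SD, n = 2). This left the middle of 3L covered 2.08 times as much as its centromere end in replicate 1 and 2.97 times as much in replicate 2. On 2R the difference was -12.6 ± 2.73 points, and the middle was covered 1.70 and 2.14 times as much. The difference was smallest on 2L, at -3.07 ± 0.786 points, and it depended on the extent of the window. Within 3 Mb of the centromere end it was 0.367 ± 0.407 points, within the spread. Counting only clusters with a value above their list's median, it was -0.994 points, within the spread. On 3R the centromere end lay above the middle by 9.75 points in replicate 1 and 9.78 in replicate 2 (9.76 ± 0.0215 points, SD, n = 2), or 1.47 and 1.45 times the share of the middle. Each of these 4 differences exceeded the spread between the replicates. For the 4 arms pooled the difference was -4.72 ± 1.60 points. The extent of the window set the size of these differences: within 3 Mb the pooled value was -1.85 points and that of 2R -6.58, and within 1 Mb that of 2L was -8.24 and that of 3R 15.1.

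The same order was seen in the number of clusters. On 3L the centromere end held 32.5 clusters per Mb in replicate 1 and 22.5 in replicate 2, against 50.9 and 53.8 in the middle. The values for 2R were 44.0 and 38.0 against 56.7 and 58.0, and those for 2L were 36.5 and 39.5 against 46.3 and 48.2. On 3R the centromere end held 62.0 and 62.5 clusters per Mb, against 46.4 and 47.9 in the middle. Every arm's difference was larger than its SD over replicates. The depleted ends thus had fewer clusters per Mb, and the 3R end had more, in each replicate list.

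**Figure D1:**
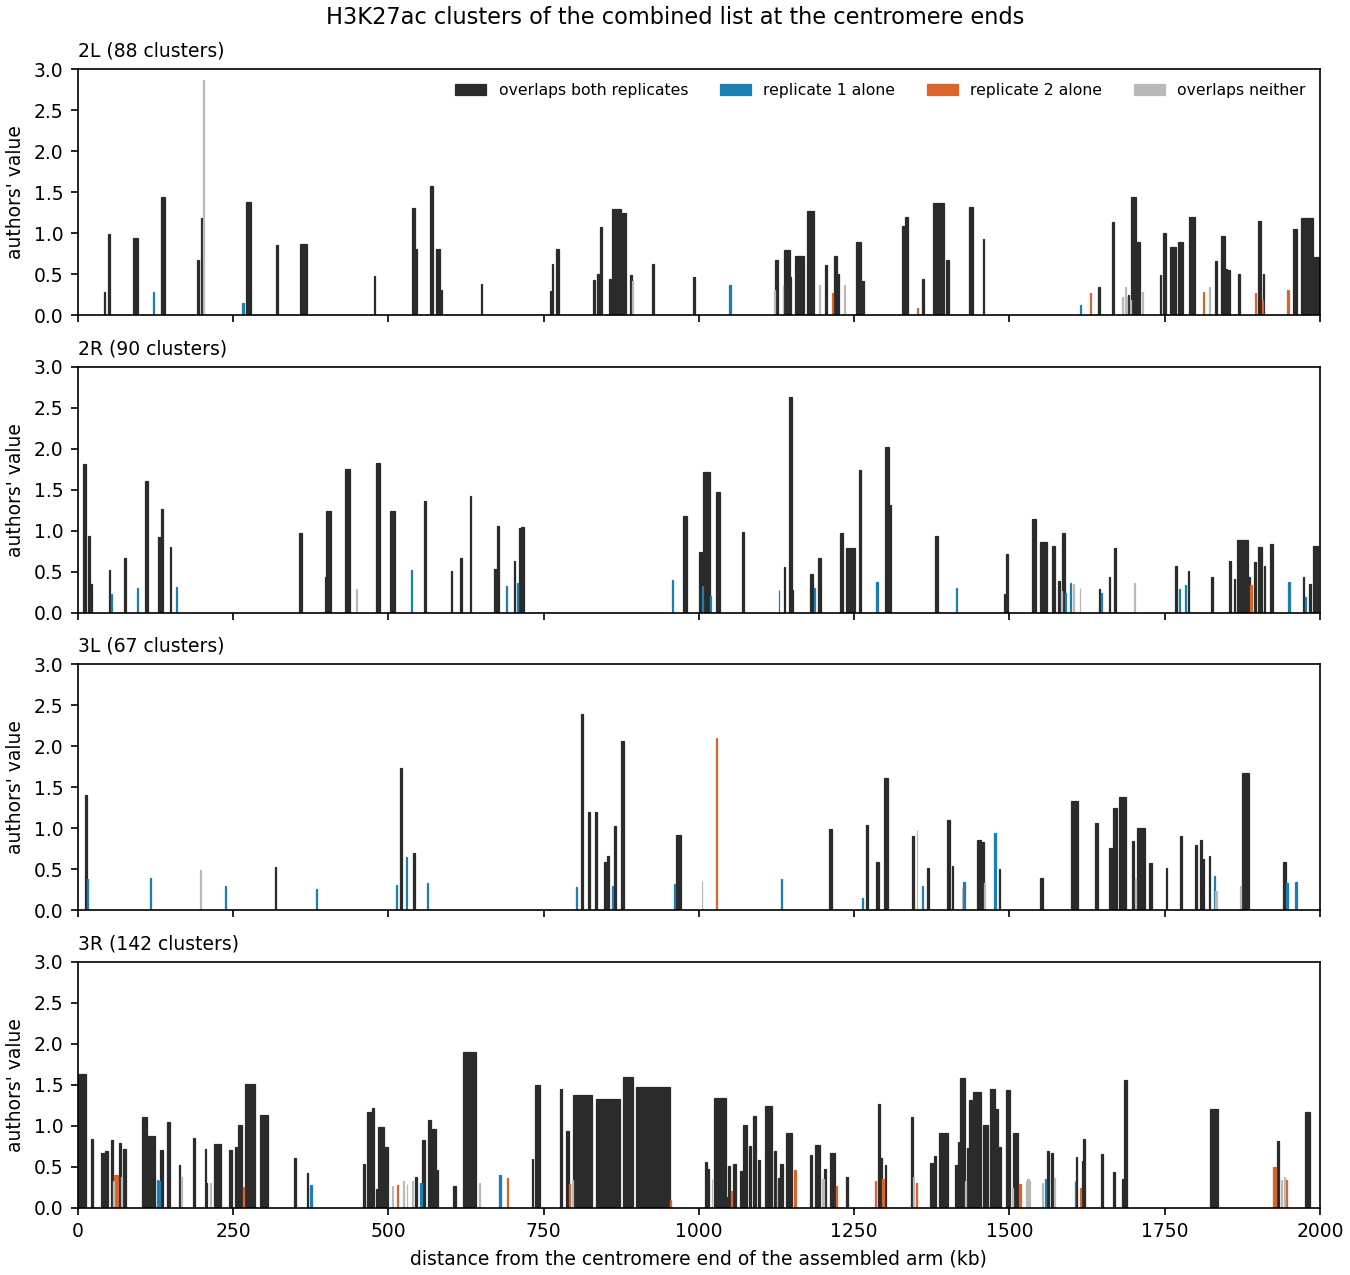
Clusters of the combined list at the centromere end of each arm, drawn to scale. The x axis is the distance from the centromere end of the assembled arm in kb, bar height is the authors' value, bar width is the width of the cluster, and colour gives the replicate lists the cluster overlaps. The 142 clusters of 3R include blocks of up to 54.6 kb, whereas no cluster of 3L is wider than 12.6 kb.

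In bins of 500 kb the covered share fell toward the centromere on 2L and 3L, while 2R and 3R had other profiles. In the first 500 kb of 3L, 3.00% of the sequence was covered in replicate 1 and 0.954% in replicate 2, from 7 and 2 clusters. The next 500 kb were covered at 10.2% and 6.47%, the third at 10.3% and 7.65% and the fourth at 19.6% and 16.7%. On 2L the covered share was 10.4% and 8.16% in the first 500 kb, 14.1% and 13.6% in the second, and 19.8% and 19.9% in the third, where it reached the level of the middle of the arm (19.0% and 19.8%). Bins of 250 kb showed no steady fall. On 3L they held 2.88% and 2.65% from 1000 to 1250 kb, but 15.4% and 10.6% from 750 to 1000 kb. On 2L the bin from 1500 to 1750 kb held 10.0% and 10.3%. On 2R it was 12.1% and 9.97% in the first 500 kb and 10.3% and 8.14% in the second, followed by 18.9% and 14.4% and then 20.2% and 18.5%. All of these bins of 2R stayed below the 26.1% and 27.3% of its middle. On 3R the covered share was highest between 500 and 1500 kb, with 31.5% and 33.3% in the first 500 kb, 40.4% and 40.3% in the second, 38.1% and 39.3% in the third, and 11.3% and 13.2% in the fourth. The fourth bin of 3R lay below the middle of that arm (20.5% and 21.7%), so the dense part of 3R ended within the window. That part was not even. From 500 to 750 kb the covered share was 22.2% and 20.8%, near the middle of the arm, and from 750 to 1000 kb it was 58.5% and 59.9%.

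**Figure D2:**
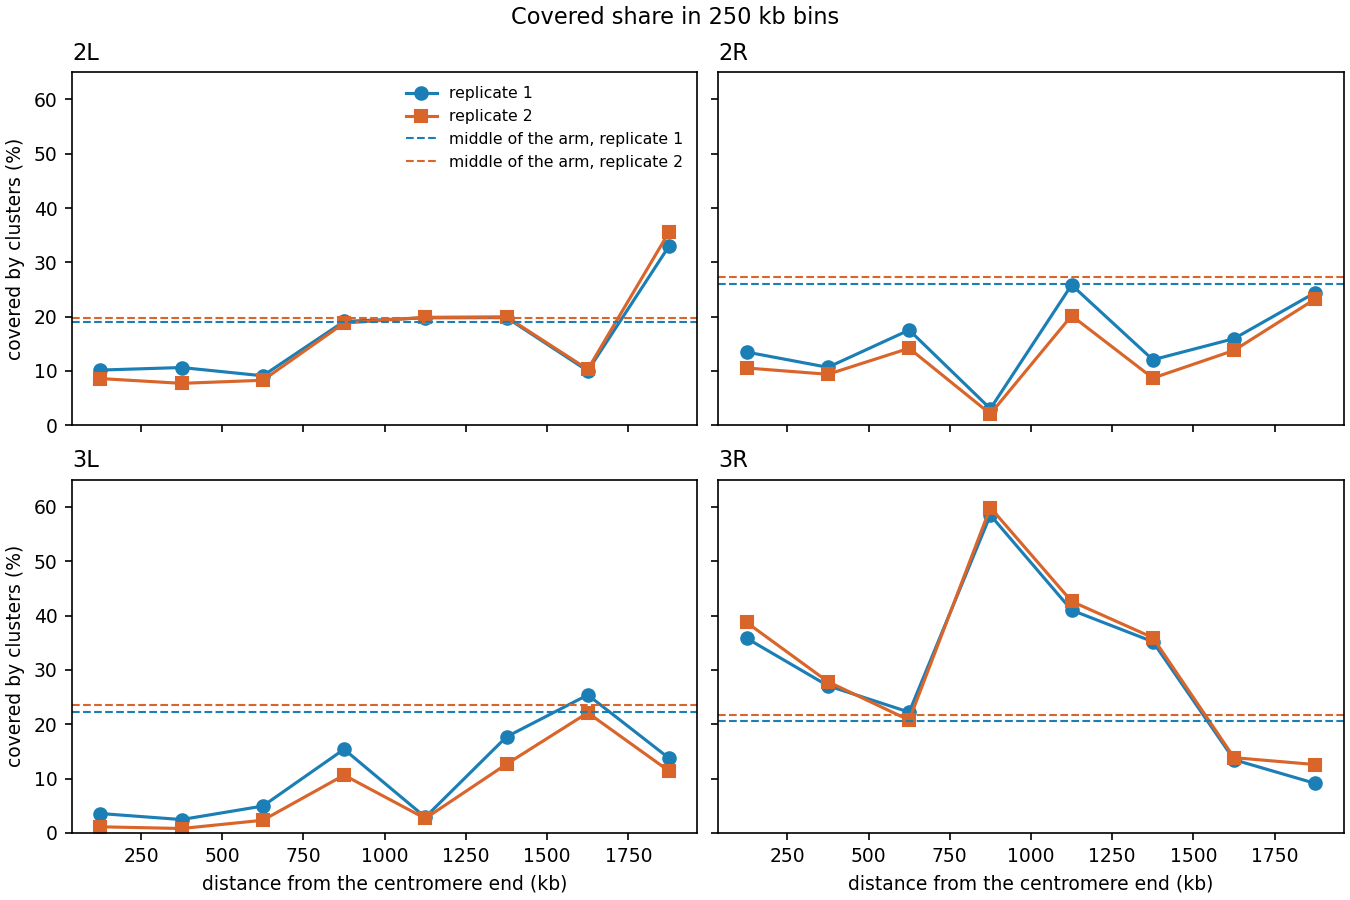
Share of sequence covered by clusters in 250 kb bins (y axis, %) against distance from the centromere end (x axis, kb), for each arm and replicate. Dashed lines give the covered share of the middle of the same arm. Bins between 750 and 1000 kb stand at 58.5% and 59.9% on 3R and at 3.05% and 2.10% on 2R.

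On 3R the acetylated sequence began at the first bases of the assembled arm. The cluster nearest to the centromere ran from 2 to 13878 and had a combined value of 1.63, with replicate values of 1.89 and 1.88. It was cut by the edge of the assembly, and its extent beyond it was not measured. Each replicate divided it into 2 clusters, and where a region was divided the replicate value given here is the highest of its clusters. The widest domain of the 3R end ran from 898482 to 953102 and was an undivided cluster of 54.5 kb (value 1.42) in replicate 1 and 54.3 kb (value 1.53) in replicate 2. On its centromere side lay a domain from 834314 to 872442 (38.1 kb, replicate values 1.29 and 1.43) and a further domain from 796864 to 828644 (31.8 kb, replicate values 1.38 and 1.47). The cluster from 877944 to 894704, between the first and second of these, spanned 16.8 kb with values of 1.45 and 1.74. Together they made the bin from 750 to 1000 kb the most covered of the 32 bins of 250 kb at the centromere ends, at 58.5% in replicate 1 and 59.9% in replicate 2.

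The highest value at the 3R end belonged to the cluster from 620732 to 641446, which spanned 20.7 kb. The combined value was 1.90, and the replicates gave 2.31 and 2.30. The replicates divided it into 3 and 2 clusters. In all, 5 clusters of 3R were at least 20000 bp wide, a class chosen after the data were seen, and the other one lay from 1023804 to 1043908 (20.1 kb, replicate values 1.404 and 1.31). Over the whole combined list 2.23% of clusters were this wide, and the ends of 2L, 2R and 3L had 0 of 88, 0 of 90 and 0 of 67. The 5 broad clusters held 22.8% of the 726 kb in clusters of the 3R end. The widest stretch without a member on 3R was 133 kb, from 1688928 to 1822374, in the sparse part of the window.

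The other centromere ends had no domain as wide. In the combined list 7 of 88 clusters on 2L spanned at least 10 kb. On 2R these were 4 of 90, on 3L 4 of 67 and on 3R 15 of 142. In replicate 1 they were 5 of 73, 4 of 88 and 3 of 65, against 9 of 124 on 3R. In replicate 2 they were 4 of 79, 1 of 76 and 2 of 45, against 11 of 125 on 3R. The share over the whole list is not given here. On 2R the cluster nearest to the centromere lay only 9.07 kb inside the assembled arm, from 9072 to 13252. Its value was 2.02 in replicate 1 and 1.54 in replicate 2, a mean of 1.78 ± 0.342 (SD, n = 2). Within 250 kb of the 2R end lay 13 clusters of replicate 1 and 10 of replicate 2. The highest member of 2R, from 1145288 to 1149210 (3.92 kb), had 2.66 and 2.61 in the replicates. Next came the clusters from 1299318 to 1306596 (7.28 kb, 2.06 and 1.99) and from 479742 to 485898 (6.16 kb, 1.88 and 1.82). These clusters had higher values than the widest members of 2R. The widest of all ran from 1867142 to 1883722 (16.6 kb, 0.967 and 1.03). It was followed by those from 1237370 to 1252120 (14.8 kb, 0.853 and 0.957) and from 1007168 to 1018410 (11.2 kb, 1.77 and 1.68).

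A stretch of 238 kb on 2R, from 718650 to 956578, held the midpoint of no cluster in any of the 3 lists. A further 196 kb without a member, from 160496 to 356312, separated the clusters at the very end of the arm from the next group. Over the whole 2R window the value of a cluster was lower with distance from the centromere, and Spearman's rho was -0.336 over the 88 clusters of replicate 1 and -0.309 over the 76 of replicate 2. The clusters share a library and are not independent, so this is a description. On the other arms rho lay between 0.0123 and 0.0183 in replicate 1 and between -0.169 and -0.0195 in replicate 2.

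The 3L end was the emptiest. Its outermost cluster, from 24529494 to 24532494, lay 11.1 kb inside the arm and had a value of 1.54 in replicate 1 and 1.31 in replicate 2. Inward from it the combined list gave 6 more members before 500 kb, of which a single one, from 24223746 to 24226398, was in both replicates (0.695 and 0.446). The 4 members in replicate 1 alone had replicate values from 0.337 to 0.545. The highest values of 3L among members found in both replicates came farther in, beyond a gap. Here the cluster from 23730038 to 23733714 (3.68 kb), 810 kb from the end, had 2.61 and 2.43 in the replicates, and that from 23663350 to 23668282 (4.93 kb), at 875 kb, had 1.89 and 2.26. The gap ran from 23741536 to 23979764 and at 238 kb was as long as that of 2R. The widest members of 3L, from 22824956 to 22837542 (12.6 kb, 1.04 and 1.33), from 22856092 to 22867936 (11.8 kb, 1.34 and 1.56) and from 22933326 to 22944810 (11.5 kb, 1.42 and 1.46), all lay more than 1500 kb from the end.

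On 2L the first 42.3 kb of the arm held no cluster. The cluster nearest to the centromere, from 22967480 to 22969234, was weak, with 0.412 in replicate 1 and 0.284 in replicate 2. The highest member of 2L found in both replicates lay from 22440112 to 22444956 (4.84 kb) with 1.69 and 1.52, followed by that from 21307162 to 21315632 (8.47 kb) with 1.34 and 1.64. The widest members lay toward the arm, from 21022984 to 21042068 (19.1 kb, 1.21 and 1.17), from 21616440 to 21634342 (17.9 kb, 1.35 and 1.43) and from 21842142 to 21856814 (14.7 kb, 0.781 and 0.702). The widest gap was 155 kb, from 21397598 to 21552440.

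The clusters of the centromere ends were fewer on 3 of the arms, but they were not weaker than those of the middle. Their median value was 0.745 in replicate 1 and 0.817 in replicate 2, against 0.659 and 0.716 in the middle of the arms, a difference of 0.0934 ± 0.0107 (SD, n = 2). The end had the higher median on all 4 arms in both replicates, by 0.119 ± 0.0532 on 2L, 0.0684 ± 0.0206 on 2R, 0.133 ± 0.115 on 3L and 0.0828 ± 0.00143 on 3R. Replicate spread was smaller than the difference on each arm, although the quartiles of end and middle overlapped on each arm. On 3L the difference was 0.0515 in replicate 1 and 0.214 in replicate 2. By rank, 195 of 350 clusters of replicate 1 (55.7%) and 177 of 325 of replicate 2 (54.5%) lay above the median of their whole list, a class that by construction holds 50% of each list. In the middle of the arms the shares were 46.1% and 47.1%, so the end exceeded the middle by 8.49 ± 1.56 percentage points. The telomere ends had medians of 0.707 and 0.723, which also lay above the middle. Pooled, the centromere ends exceeded them by 0.0659 ± 0.0396 (SD, n = 2). By arm this exceeded the spread on 2L (0.0672 ± 0.0555) and 3R (0.114 ± 0.0341). It did not on 2R (0.0107 and 0.122) or on 3L (-0.0518 and 0.158).

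**Figure D3:**
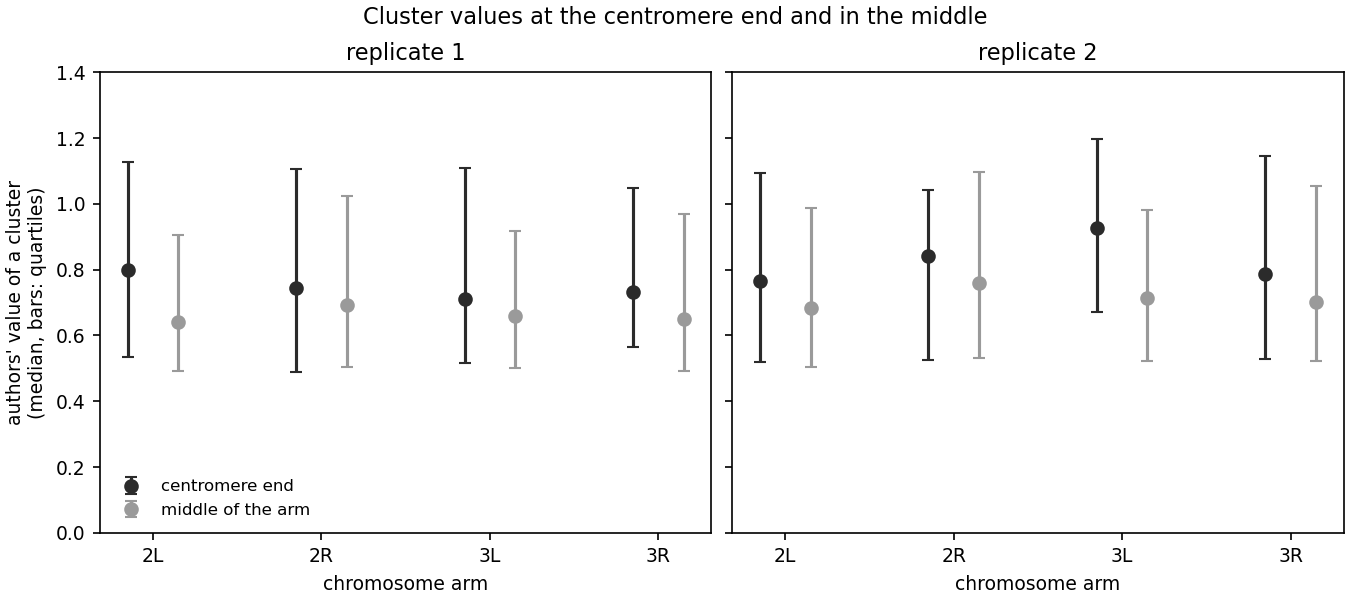
Authors' value of the clusters (y axis, scale not stated) by chromosome arm, at the centromere end and in the middle of the arm, for each replicate list. Points are medians and bars run from the lower to the upper quartile over clusters. Each end has the higher median, with the widest distance on 3L in replicate 2 (0.927 against 0.714).

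In width the arms went different ways. Pooled over the arms, the clusters of the ends measured 2886.5 and 2889 bp at the median in replicates 1 and 2, those of the middle 2856 and 2948 bp, and the replicates disagreed on the direction. The median of the end was below that of the middle on 2R (-361 ± 48.4 bp, SD, n = 2) and on 3L (-242 ± 97.6 bp), and above it on 2L (265 ± 133 bp) and 3R (126 ± 64.3 bp). These 4 differences were larger than their SD. Among clusters from 2000 bp to under 5000 bp wide, the median value was higher at the ends, by 0.0646 in replicate 1 and 0.133 in replicate 2. In this class the end was higher on all 4 arms in both replicates, most on 3L (0.210 ± 0.0111, SD, n = 2). Clusters narrower than 2000 bp differed by -0.00377 and 0.00193, and the replicates disagreed in sign. Among clusters of at least 5000 bp the end was higher by 0.0832 in replicate 1 and by 0.00685 in replicate 2, a mean of 0.0450 ± 0.0540 that did not exceed the spread. The limits of the width classes were chosen after the data were seen. Wider clusters had higher values at the ends too, and Spearman's rho between both measures was 0.788 over the 350 clusters of replicate 1 and over the 325 of replicate 2, against 0.858 and 0.853 in the middle.

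Spacing followed the covered share in direction on each arm, but not in size. From the end of a cluster to the start of the next, the median gap on 3L was 9.70 kb in replicate 1 and 15.5 kb in replicate 2 at the centromere end, against 4.97 and 4.59 kb in the middle. The gaps of 2R were 7.73 and 7.61 kb against 4.90 and 4.78 kb, and those of 2L 10.6 and 7.05 kb against 5.31 and 5.30 kb. On 3R neighbours lay closer at the centromere end, at 3.80 and 3.67 kb against 5.11 and 5.05 kb. Each of the 4 arms differed by more than its SD over replicates.

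Most members of the combined list were found in both replicates, at a share near that of the whole list. Of the 387 members, 265 (68.5%, exact Clopper-Pearson 95% interval 63.6 to 73.1%) overlapped a cluster of each replicate by at least 1 bp, against 65% over the whole combined list. The list was made from the same libraries, so this is no independent evidence for a member, and the interval covers counting error only. At the median, the shared members measured 3926 bp and had a value of 0.807. A further 49 overlapped a cluster of replicate 1 alone (12.7%, median value 0.323), 25 of replicate 2 alone (6.46%, 0.289) and 48 of neither (12.4%, 0.331). Over the whole combined list these shares were 8.05%, 10.4% and 16.6%. Of those in neither, 27 were narrower than 1300 bp, while neither replicate list holds a cluster under that width. By arm, 65 of 88 members of 2L, 64 of 90 of 2R, 40 of 67 of 3L and 96 of 142 of 3R were in both. On 2R the members in a single replicate were 20 of replicate 1 and 1 of replicate 2, and on 3L they were 18 and 1. On 3R the split was the other way, with 7 and 16, and on 2L it was 4 and 7.

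The replicate lists showed the one-sidedness of the 2R and 3L ends directly. On 3L 44 of 65 clusters of replicate 1 (67.7%, interval 54.9 to 78.8%) overlapped a cluster of replicate 2, while 44 of 45 clusters of replicate 2 (97.8%, 88.2 to 99.9%) overlapped one of replicate 1. On 2R the shares were 67 of 88 (76.1%, 65.9 to 84.6%) and 73 of 76 (96.1%, 88.9 to 99.2%). Over the whole lists 88.9% of replicate 1 clusters and 86.1% of replicate 2 clusters were found in the other. In the middle of the same arms the shares were 91.0% and 86.0% on 3L and 91.5% and 86.6% on 2R, so there replicate 1 had the larger share. The ends of 2L (94.5% and 91.1%) and 3R (93.5% and 86.4%) had the order of the middle. Each direction comes from a single list, and the difference between ends and middle was not tested.

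**Figure D4:**
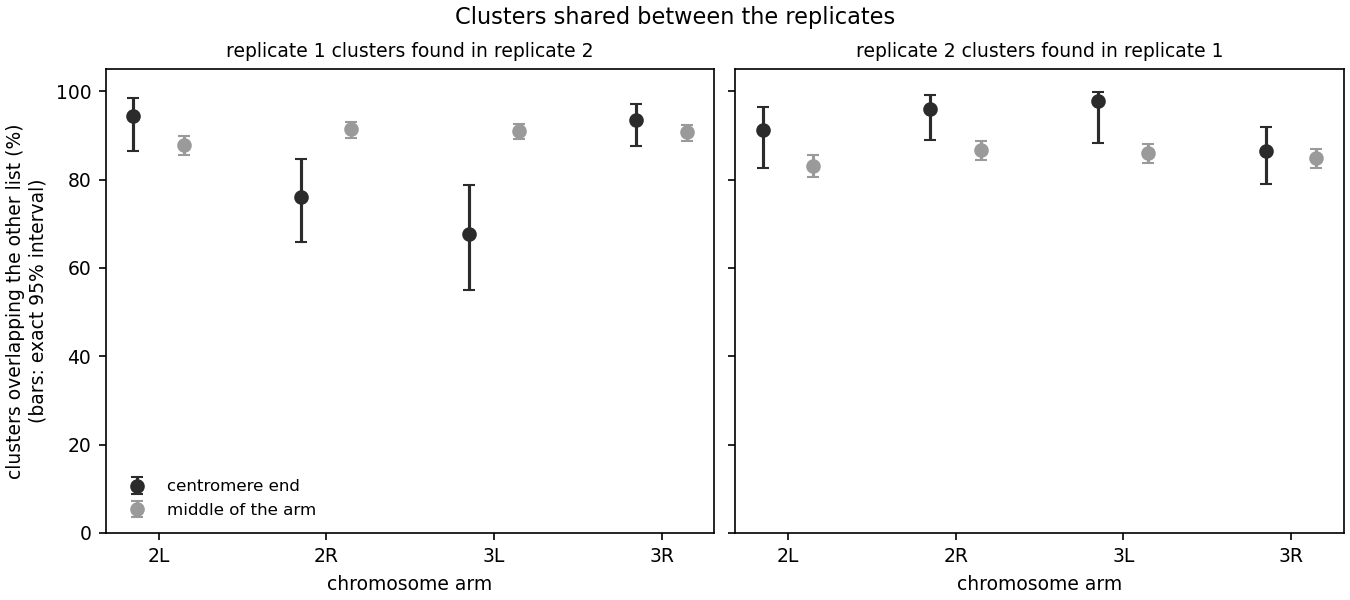
Share of clusters that overlap the other replicate list by at least 1 bp (y axis, %) by chromosome arm, for clusters of replicate 1 and of replicate 2. Bars are exact Clopper-Pearson 95% intervals, which cover counting error only. For replicate 1 the ends of 2R (76.1%) and 3L (67.7%) lie below the middle of their arms, and for replicate 2 they lie above it.

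Unshared clusters were mostly narrow, at the ends as elsewhere. Of the 54 clusters of the ends that replicate 2 lacked, 42 were under 2000 bp, and in the middle of the arms 301 of 387 were. Among clusters under 2000 bp, 30 of 72 of replicate 1 (41.7%) were found in replicate 2, against 722 of 1023 (70.6%) in the middle of the arms. For replicate 2 the order was reversed, with 56 of 77 (72.7%) at the ends and 545 of 1024 (53.2%) in the middle. Of the replicate 1 clusters of at least 5000 bp, all 78 at the ends were shared, near the 1588 of 1590 (99.9%) of the whole list. For replicate 2 these were 69 of 71 (97.2%) at the ends and 1608 of 1612 (99.8%) in the whole list. At the 2R end 7 of 24 replicate 1 clusters under 2000 bp (29.2%) were shared, against 73.1% in the middle of 2R. On 3L this held for 3 of 19 (15.8%) at the end, against 73.8% in the middle. The shared ones were 7 of 10 at the 2L end (70.0%) and 13 of 19 at the 3R end (68.4%). In the middle of those arms the shares were 62.7% and 72.3%.

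Covered sequence told the replicates apart in the same places. Replicate 1 covered more than replicate 2 in all 8 bins of 250 kb on 2R and in all 8 on 3L, by a median of 2.55 and 2.53 percentage points. It did so in 4 of 8 bins on 2L and in 1 of 8 on 3R. In the middle of the 4 arms this held for 86 of 321 bins, or 26.8%, and the median difference, replicate 1 minus replicate 2, was -1.004 points. The size of the bins was chosen after the data were seen. Sequencing depth is unknown for both libraries, so its part in these differences was not tested.

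Where both replicates had a cluster, that of replicate 2 was more often the narrower one at the ends of 2L, 2R and 3L. At the 4 ends together 249 pairs of clusters overlapped only each other, and the replicate 2 cluster was narrower in 160 of them (64.3%), against 41.7% of 2892 pairs in the middle. On 3L it was narrower in 35 of 41 pairs (85.4%), the median of replicate 2 minus replicate 1 being -406 bp, and on 2R in 42 of 63 (66.7%) with -175 bp. On 2L this held for 42 of 61 pairs (68.9%, -147 bp). The 3R pairs were divided evenly, with 41 of 84 (48.8%) and a median of 9 bp. Rank order was kept, with a Spearman rho of 0.885 across the 249 pairs and 0.883 across the pairs of the middle. These pairs share 2 libraries, and the correlation is a description. Start positions differed by a median of 118 bp and end positions by 149 bp.

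Among the highest members were 2 that the replicates did not share. On 2L the highest value of the combined list, 2.87, belonged to a cluster of 1000 bp from 22808756 to 22809756 that overlapped no cluster of either replicate. Its neighbour from 22810352 to 22812584 was in both, with 1.195 and 1.20. On 3L the cluster from 23514072 to 23516210 (2.14 kb) had a combined value of 2.11 and 3.25 in replicate 2, the highest replicate value at any of the 4 ends, and no cluster of replicate 1 overlapped it. It was the only cluster of replicate 2 at the 3L end without a partner.

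The centromere ends were set beside other parts of the assembly, each by some of the measures above. On the scaffolds 2LHet, 2RHet, 3LHet and 3RHet, which hold heterochromatin of the same chromosomes beyond the arms, gaps were longer, with medians of 33.1 kb in replicate 1 (81 clusters) and 42.7 kb in replicate 2 (58 clusters). Values there were high within the lists, with 64.2% and 67.2% of clusters above the list median. At the centromere end of X, the last 2 Mb of that arm, the shares were 52.1% of 48 and 38.6% of 57 clusters. Against the 2 Mb at the telomere ends of the same 4 arms, the centromere ends were covered less by 9.55 percentage points in replicate 1 and 12.0 in replicate 2. By arm this difference was -12.2 ± 1.05 points on 2L, -12.1 ± 2.99 on 2R and -29.4 ± 1.87 on 3L, and on 3R it was 10.5 ± 1.07 (SD, n = 2).

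At the limit of 2 Mb, the last member inside it had a combined value of 0.706 on 2L, 0.813 on 2R, 0.344 on 3L and 1.17 on 3R. The first cluster outside had 0.952 on 2L, 0.303 on 2R, 0.377 on 3L and 0.307 on 3R.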

How the data were processed

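Lists of enriched regions were analysed for 2 H3K27ac ChIP-seq replicates and for the replicate set, grouped by sample titles. The submitters' processing notes name Bowtie 0.12.7, a read aligner. How regions were called, at what threshold, and how the authors joined the replicates is not given in the sources used here. Each region's score is the authors' deposited value, on a scale not stated. Region starts and ends, another deposited quantity, are on FlyBase release 5, per the file headers. Width is end minus start, and the 1 region marked as depleted was left out.

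Clusters were assigned to a window by midpoint, and covered bases were clipped to it. Shares, densities, gaps and overlaps were computed per list, and means and SDs over the 2 replicates. The regions named for each arm are the member nearest the centromere end, the 3 widest, the 3 highest, the widest gap and the members beside the limit. Others were named after their values were seen. The members, windows and measures were chosen with earlier results of these data known. Alternatives were a window of 1 or 3 Mb, values above the list median, merging of clusters under 500 bp apart, a minimum width of 1300 bp, full containment, reciprocal overlap of 50%, the rest of the arm as reference, clusters per Mb, shared clusters only and each replicate alone. The computations were tested on 20 simulated pairs of lists. Depth is unknown, and the input libraries were not analysed here. Python 3.11.15, NumPy 2.4.6, pandas 2.3.3, SciPy 1.17.1 and Matplotlib 3.10.9 were used.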

Additional observations from a re-analysis of the deposited data

Results flagged for a closer look

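The difference in covered share between centromere end and middle was positive on 3R and negative on the 3 other arms in both replicates. The 3R difference lay above that of 2L by 12.8 ± 0.808 percentage points, above that of 2R by 22.4 ± 2.75 and above that of 3L by 23.4 ± 2.90 (SD, n = 2). Every replicate moved in opposite directions on the arms compared, and the difference between arms was not tested.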

How the results depend on the processing

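No paired analysis was possible because the input libraries, which share the replicate numbers, have no list here; end and middle were compared within each replicate list. Of 45 alternative values for covered share, 43 kept their direction and, where they had one, their side of the call. Not all of them could have changed. A single replicate has no call and already had the direction of the mean. The minimum width of 1300 bp removed no replicate cluster and returned the main values. The exceptions among the 45 are on 2L. There the difference was 0.367 ± 0.407 points with a window of 3 Mb and -0.994 points among values above the list median, both within the spread. The size of others moved by over 1.5 times: the pooled difference was -1.85 points with 3 Mb and -2.68 among values above the list median, 2R was -6.58 with 3 Mb, and 1 Mb gave -8.24 on 2L and 15.1 on 3R. Leaving out either replicate gave -5.85 to -3.59 points for the pooled arms, -3.63 to -2.52 on 2L, -14.6 to -10.7 on 2R, -15.6 to -11.6 on 3L and 9.75 to 9.78 on 3R. The higher median value at the ends kept its direction in all 20 alternatives, chosen after the data were seen, and its call wherever there was one. Those with a single replicate have no call, and their direction was already given by the main result. On 3L the difference was 0.229 among shared clusters.

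Windows of 1 and 3 Mb held 153 and 642 members, with median widths of 3000 and 3022 bp and gaps of 6386 and 4253 bp against 5614 bp, and the median value was 0.670 with 1 Mb. Values above the list median left 217 members (4326 bp, value 0.917, gap 10304 bp). Merging gave 3074 bp, 0.656 and 6686 bp, and a minimum width of 1300 bp gave 3028 bp, 0.659, 6109 bp and 74.9% in both replicates. Reciprocal overlap of 50% gave 62.8% in both replicates. The cause was not tested. With reciprocal overlap, 66.2% of replicate 1 clusters at the 3L end and 95.6% of replicate 2 clusters were shared. Depth being unknown, an empty stretch cannot be told from sequence where reads could not be placed.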
